A study of Homo sapiens with 3 samples.

Results

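The enzymes and transporters of glycolysis, the pentose phosphate pathway, pyruvate dehydrogenase and the citrate cycle were followed in HEK293T, an immortalized human embryonic kidney line. The set holds 44 genes, chosen by name to cover each step and its common paralogs, out of 61193 annotated genes and 19926 protein-coding genes to which the deposited transcripts could be joined. Counts and TPM were summed over all listed transcripts of a gene. The samples were 3 biological replicates of 1 condition: unmodified, untreated HEK293T grown in DMEM with 10% FBS, seeded in T-75 flasks and harvested after 24 hours, with 2 µg of total RNA used per library. There was no second cell line, treatment or time point among these RNA libraries, so levels are described and no group is compared, and the spread between replicates is that within 1 established line. The labels call the molecule genomic DNA, while the extraction protocol describes RNA.

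Glycolysis splits glucose into pyruvate in the cytosol with a small yield of ATP and NADH. The pentose phosphate pathway branches off at glucose 6-phosphate to make NADPH and ribose 5-phosphate, and the mitochondrial citrate cycle oxidizes the acetyl-CoA that pyruvate dehydrogenase makes from pyruvate. Several of these steps are catalysed by paralogous isozymes, and proliferating cell lines usually carry abundant mRNA of the glycolytic enzymes.

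Libraries were made by QuantSeq, which primes at the poly(A) tail and therefore reads the 3′ end of each mRNA. The deposited tables count reads per transcript and not per gene. The 3′ end of each gene, and the listed transcripts that share it, thus belong beside every count. The last 30 exonic bases of 7 canonical transcripts are shown, with the poly(A) signal hexamer in capitals. The first 4 belong to the members with the highest TPM, and the last 3 to members whose 3′ end lies in several listed transcripts and whose counts were low or 0. All were read 5′ to 3′ from GRCh38.
PGD-201, chr1:10420482-10420511, plus strand: ctagagaATTAAActttaatgatgggctca
RPIA-201, chr2:88750900-88750929, plus strand: tgcaggtttaAATAAAacagtgtggtgcca
DLD-201, chr7:107921169-107921198, plus strand: cctaggAATAAAacaagttttaagtgttca
FH-201, chr1:241497603-241497632, minus strand: ttataaAATAAAaaggaaaacagacttaaa
GAPDH-201, chr12:6538342-6538371, plus strand: accatcAATAAAgtaccctgtgctcaacca
ALDOA-218, chr16:30070385-30070414, plus strand: actgccaAATAAAcagctatttaaggggga
LDHB-201, chr12:21635342-21635371, minus strand: tgaacaAATAAAattaactattgtagtgtg
All of them hold a hexamer, on both sides of the comparison. Searched on the transcript strand alone, with AATAAA taken first, 26 of the 44 ends held AATAAA, 8 held ATTAAA without it and 10 held neither. Of 19351 canonical ends of protein-coding genes, 69.7% held one or the other.

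The libraries held 7019253, 6262175 and 8521624 counts in replicates 1, 2 and 3. The limit behind a listed 0 was 3 counts, which is 0.427, 0.479 and 0.352 CPM (counts scaled to 1000000 per library), and it covers counting error only. Mitochondrially encoded genes took 9.59%, 5.70% and 25.8% of the counts, so replicate 3 stood apart. Of 9 HEK293T markers, 5 exceeded the limit in every replicate (KRT8, CDH2, PAX2, LIN28B and SOX11), while KRT18, NEFL and NEFM were at 0 and VIM had 0, 6 and 5 counts. The summed level of these 9 markers was 243, 262 and 179 CPM. The markers of hepatocytes (0 of 3), skeletal muscle (0 of 3) and erythroid cells (0 of 2) did not pass the limit. Those of leucocytes (2 of 3, summed level 3.76 to 7.19 CPM, PTPRC at 0) and fibroblasts (1 of 3, 101 to 132 CPM, from COL1A1 with COL1A2 at 0) did in part. The part of the cells behind these markers in the members' levels was not tested.

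Of the 44 members, 23 exceeded 3 counts in every replicate and are called measured, against 39.5% of all protein-coding genes. No count in any replicate was listed for 6 members (HK1, PFKL, ALDOC, GAPDH, RPE and IDH3B), against 36.5% of protein-coding genes. A mean TPM of at least 1 was reached by 23 members, against 38.2%. With expressed genes cut at their quartiles (2.40 and 24.1 TPM), 7 members were in the high category, 12 in the medium and 4 in the low, against 12.5% of protein-coding genes in the high one. All members together took 0.224%, 0.237% and 0.177% of the counts (95% Wilson intervals, which cover counting error only, 0.220 to 0.227%, 0.234 to 0.241% and 0.174 to 0.180%), a mean of 0.213% ± 0.0317 (SD, n = 3). The citrate cycle held 41.5% of these counts, the pentose phosphate pathway 34.3%, pyruvate dehydrogenase 18.7%, the 15 glycolytic genes 4.86%, the transporters 0.445% and lactate dehydrogenase 0.247%. FH, PGD, RPIA, DLD and PGAM1 alone held 90.2%, so the pathway shares rest on few genes. Of the 2970, 2680 and 2902 counts of pyruvate dehydrogenase, 2959, 2666 and 2873 were on DLD, which 2-oxoglutarate dehydrogenase also uses.

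**Figure D1:**
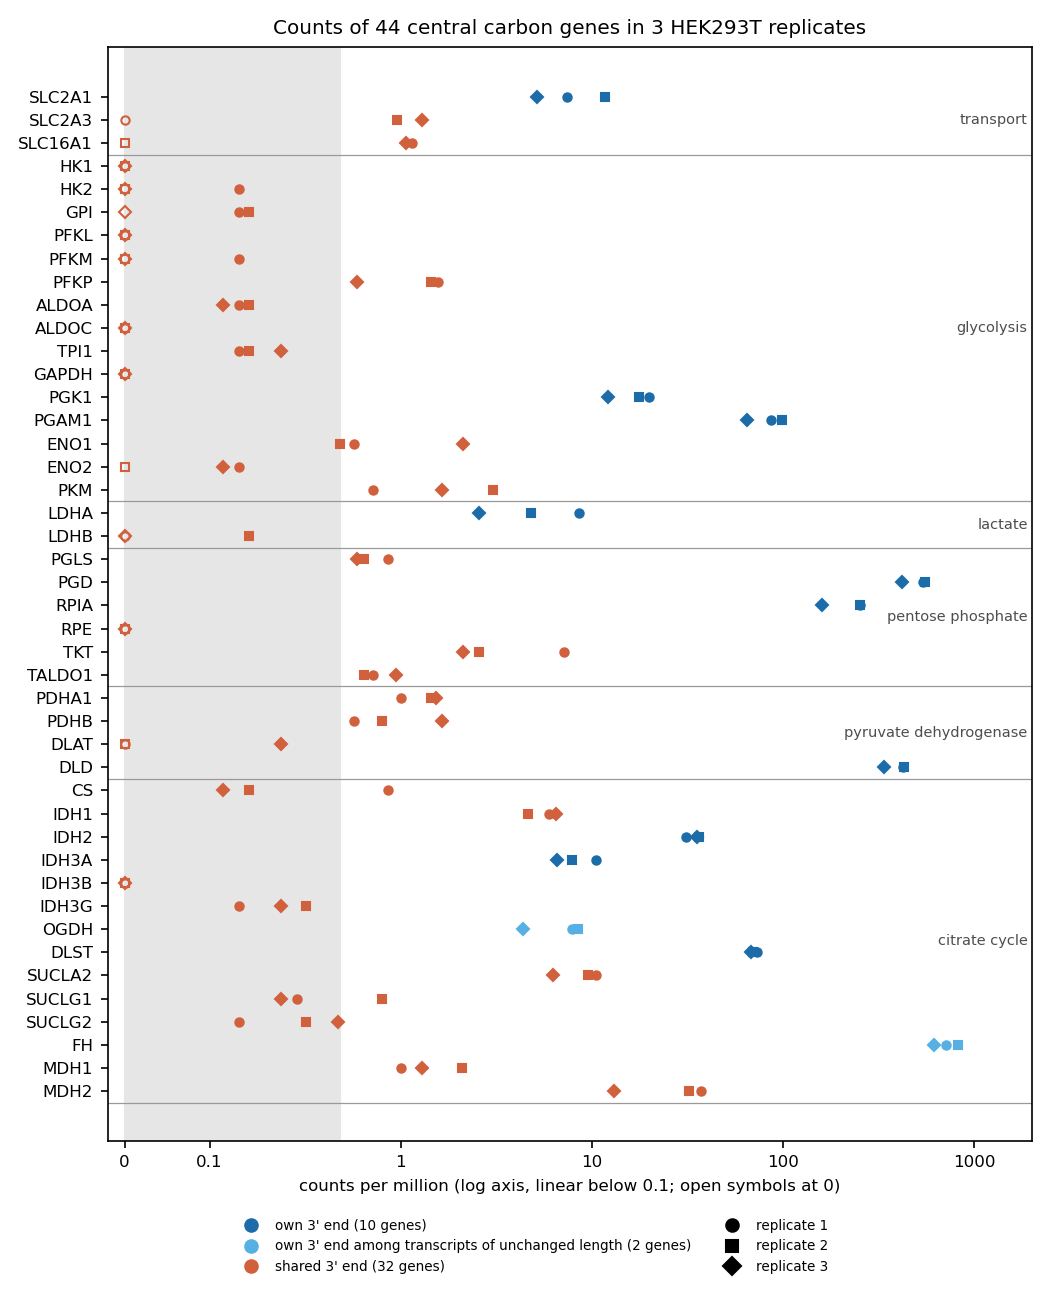
CPM of each member (x axis, log scale, linear below 0.1) in the 3 replicates (symbols), grouped by pathway and coloured by whether the 3′ end is the canonical transcript's own or shared with other listed transcripts. The grey band marks values under 3 counts in the shallowest library (0.479 CPM). All 12 genes with an own end lie to its right in every replicate, while HK1, PFKL, ALDOC, GAPDH, RPE and IDH3B lie at 0. Of the 12, FH and OGDH have an own end only by a reading chosen after the data were seen.

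An end is called own where at least 50% of the final 300 exonic bases of a gene's canonical form are covered by that 1 listed transcript alone, and shared otherwise. By this measure 10 members had an own end, against 42.6% of protein-coding genes: SLC2A1, PGK1, PGAM1, LDHA, PGD, RPIA, DLD, IDH2, IDH3A and DLST. FH and OGDH joined them once transcripts whose deposited length differs from GENCODE v44 were set aside, canonical ones excepted (FH-201 has 1797 bases in the deposited table and 1791 in v44). FH-202, which covers the end of FH-201 in v44 with 2353 bases, has 414 bases in the deposited table, and OGDH-206 has 3474 there against 4226. This reading was chosen after the data were seen. The remaining 32 members had a shared end, and 45.0% of protein-coding genes had an own end by this second reading.

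All 12 members with an own end were measured, with mean counts from 37.3 to 5129 and a median of 379. Of the 32 members with a shared end 11 were measured, with a median mean count of 2.50 and a highest of 191. Over all protein-coding genes 55.8% of the 8706 with an own end and 26.2% of the 10645 with a shared end were measured, with median mean counts of 20.0 and 0.333. The canonical transcript held 99.6% of the 44411 counts of the 12 members with an own end. Of these counts 15531 were on FH and OGDH, 15434 of them canonical. By the first reading FH and OGDH fall on the shared side, whose highest mean count is then 5129 and whose counts are then mostly canonical. The split thus depends on the reading chosen. In the 32 with a shared end the canonical transcript held 3 of 1253 counts (0.239%), retained-intron transcripts held 24.3% and other listed transcripts 75.5%. The same shares over all protein-coding genes are not given here. How reads that fall on several transcripts were counted is not given in the sources used here, and the part that shared ends have in these low counts was not tested. A low count of a member with a shared end therefore sets a bound on the reads assigned to it. Whether its mRNA was also low in the cells was not tested.

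**Figure D2:**
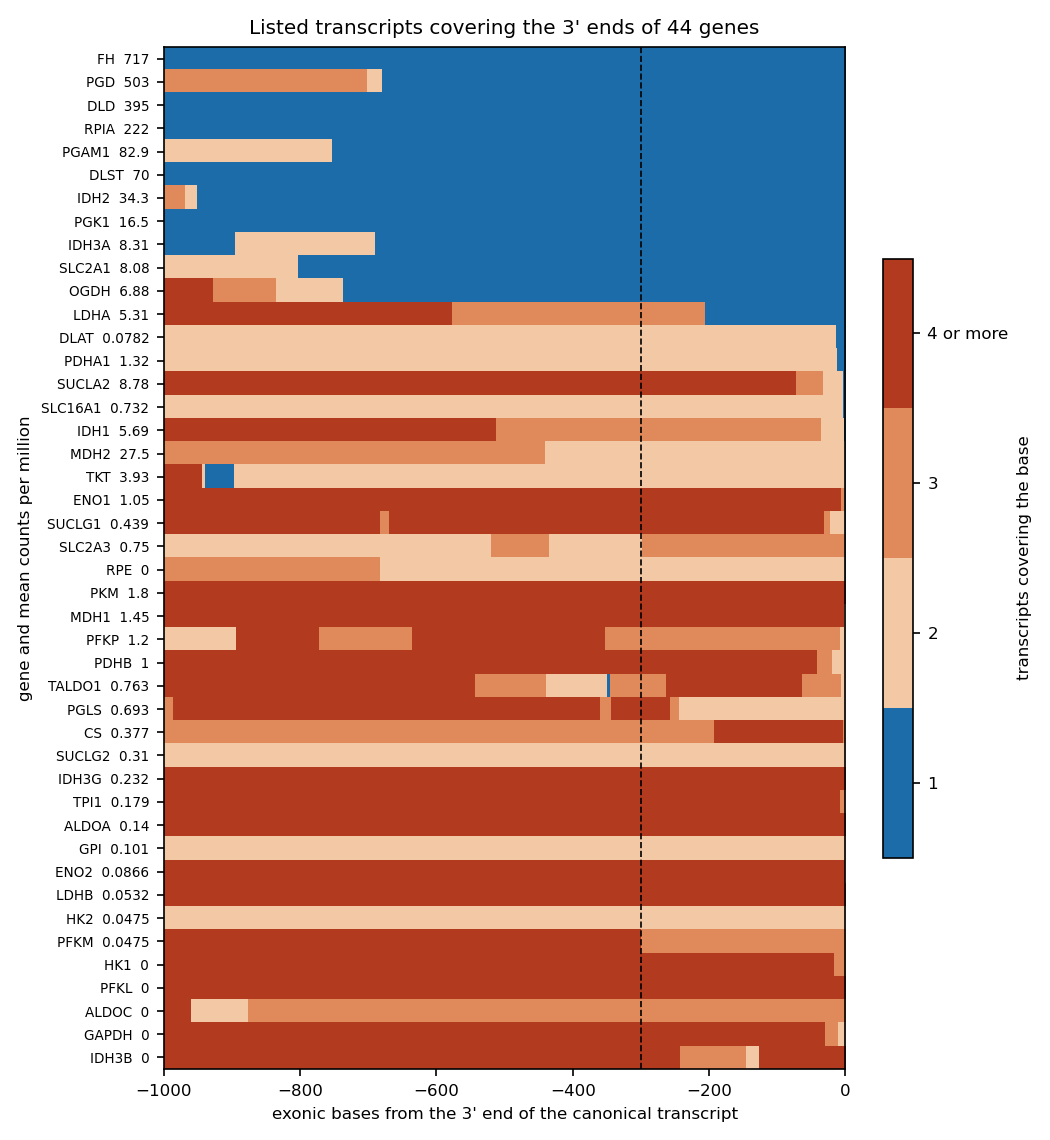
Number of listed transcripts of unchanged length that cover each of the final 1000 exonic bases of the canonical form (x axis, in bases from the 3′ end) of the 44 members (rows, with mean CPM). The last 300 bases, right of the dashed line, lie wholly or mostly in 1 transcript in the upper 12 rows, and in 2 or more over most of their length in the 32 below.

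**Figure D3:**
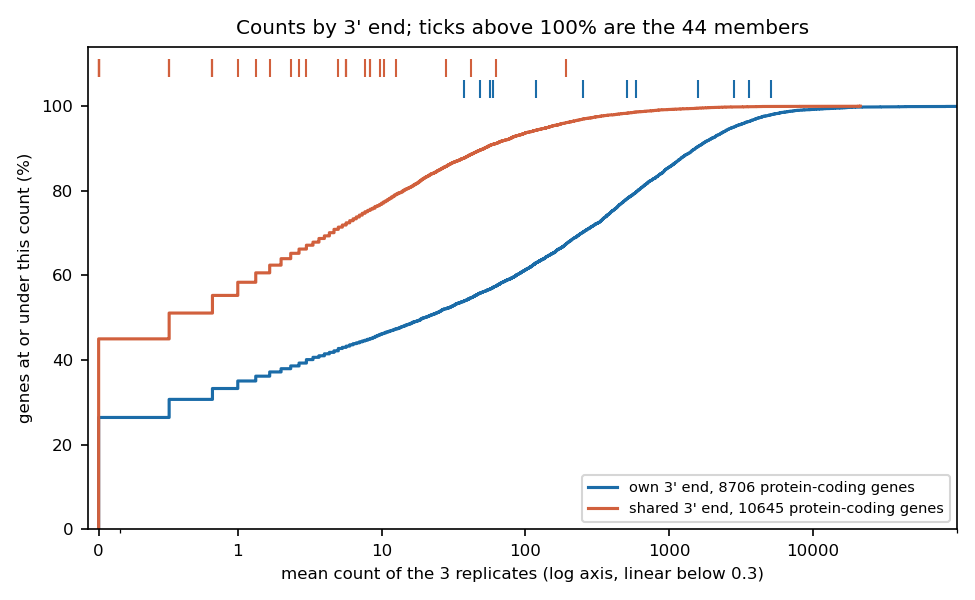
Cumulative share of protein-coding genes (y axis) by mean count of the 3 replicates (x axis, log scale, linear below 0.3), for 8706 genes with an own and 10645 with a shared 3′ end; ticks above 100% mark the members. By the second reading, the members with an own end begin at a mean count of 37.3, and those with a shared end reach at most 191. By the first, FH with a mean count of 5129 has a shared end.

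Glucose enters through facilitative transporters of the SLC2A family, and lactate leaves through monocarboxylate transporters. SLC2A1 (GLUT1, the common transporter of dividing cells) had 52, 73 and 44 counts in replicates 1, 2 and 3, all on the canonical SLC2A1-203, whose last 803 bases are its own. SLC2A3 (GLUT3, the high-affinity transporter of neurons) had 0, 6 and 11 counts, all on retained-intron transcripts. SLC2A1 was the higher of the pair in every replicate, at 3.68 ± 1.87 TPM against 0.714 ± 0.648 (SD, n = 3), and the ranges did not overlap. The ends of this pair differ in class, own and shared. The monocarboxylate transporter SLC16A1 (MCT1) had 8, 0 and 9 counts and was not measured.

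In the upper part of glycolysis no isozyme of hexokinase or aldolase could be told from the others. HK1, the hexokinase of most tissues, had 0 counts in every replicate, and HK2, the inducible form of muscle and fat, had 1, 0 and 0. GPI, which isomerizes glucose 6-phosphate, had 1, 1 and 0. Of the phosphofructokinases, the committed step, PFKP (platelet form) had 11, 9 and 5 counts, PFKM (muscle form) had 1, 0 and 0, and PFKL (liver form) had 0. PFKP was the highest in every replicate at 2.18 ± 1.10 TPM, and its count was at least 1.67-fold that of PFKL per library, set against the limit of 3 counts. All of its 25 counts lay on transcripts other than the canonical one. The ends of all 3 genes are shared. ALDOA, the aldolase of most tissues, had 1 count in each replicate and ALDOC, the brain form, had 0. The last 300 bases of ALDOA also lie wholly in ENSG00000285043, another protein-coding gene on the same strand, which had 0 counts.

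TPI1, which interconverts the triose phosphates, had 1, 1 and 2 counts. GAPDH, which oxidizes glyceraldehyde 3-phosphate and often serves as a loading control, was listed at 0 in all 3 replicates on each of its 11 listed transcripts, up to 9 of which cover a single base of its last 300. Of these 300 bases 248 also lie opposite the long noncoding RNA ENSG00000269968, itself at 0. The genes of the next steps have own ends and were measured. PGK1, the first ATP-making step, had 140, 110 and 103 counts, all on PGK1-201, a transcript of 4812 bases whose last 2346 are its own. PGAM1, which moves the phosphate of 3-phosphoglycerate, had 602, 617 and 548 counts and 78.1, 96.5 and 50.4 TPM, and was the one glycolytic gene in the high category (SD 23.2 TPM, n = 3).

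The enolases and pyruvate kinase end the pathway, and their ends are shared. ENO1, the enolase of most tissues, had 4, 3 and 18 counts, 88.0% of them on retained-intron transcripts. ENO2, the neuronal form, had 1, 0 and 1. The order of the enolases was not called, since ENO1 was at the limit in replicate 2. PKM, which makes pyruvate, had 5, 19 and 14 counts, of which 30 of 38 lay on PKM-204 and none on the canonical PKM-202. The end of PKM is held by several listed forms, so these counts do not separate PKM1 from PKM2. Of lactate dehydrogenase, LDHA, the muscle-type subunit, had 60, 30 and 22 counts (4.18 ± 2.32 TPM), 92.9% on the canonical LDHA-205, of whose last 300 bases 69.0% are its own. LDHB, the heart-type subunit, had 0, 1 and 0. LDHA was the higher in every replicate. Again the ends differ in class, and 103 of the last 300 bases of LDHB lie in ENSG00000285854, a protein-coding gene on the same strand with 9, 4 and 8 counts.

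In the oxidative branch of the pentose phosphate pathway PGD, which makes NADPH and ribulose 5-phosphate, had 3772, 3462 and 3573 counts, all on PGD-201. Its levels were 367, 398 and 236 TPM. PGLS, the lactonase before it, had 6, 4 and 5 counts, all on retained-intron transcripts. RPIA, which makes ribose 5-phosphate and has a single listed transcript, had 1771, 1586 and 1366 counts and 215, 228 and 113 TPM. RPE, which makes xylulose 5-phosphate from the same substrate, had 0 counts. Its last 300 bases lie wholly opposite exons of KANSL1L, which had 78, 59 and 65 counts, and whether strand was used in counting is not given in the sources used here. The sugar-exchanging enzymes had low counts on noncanonical transcripts. TKT, the transketolase, had 50, 16 and 18, of which 76.2% were on retained introns, and TALDO1, the transaldolase, had 5, 4 and 8.

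The subunits of pyruvate dehydrogenase were listed at widely different levels. DLD is the dihydrolipoamide dehydrogenase (E3) that pyruvate and 2-oxoglutarate dehydrogenase have in common. DLD had 2959, 2666 and 2873 counts and 184, 197 and 122 TPM, and its end is own. PDHA1 and PDHB, the E1 subunits of pyruvate dehydrogenase, had 7, 9 and 13 and 4, 5 and 14 counts, and DLAT, its E2 core, had 0, 0 and 2. Per length, DLD was at 168 ± 40.1 TPM, PDHA1 at 2.70 ± 0.621 and PDHB at 0.320 ± 0.139 (SD, n = 3). The ends of PDHA1, PDHB and DLAT are shared, that of PDHA1 also lies for 101 bases opposite MAP3K15, and that of DLAT for 117 bases opposite PIH1D2. The counts thus give no ratio of the subunits' mRNAs.

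**Figure D4:**
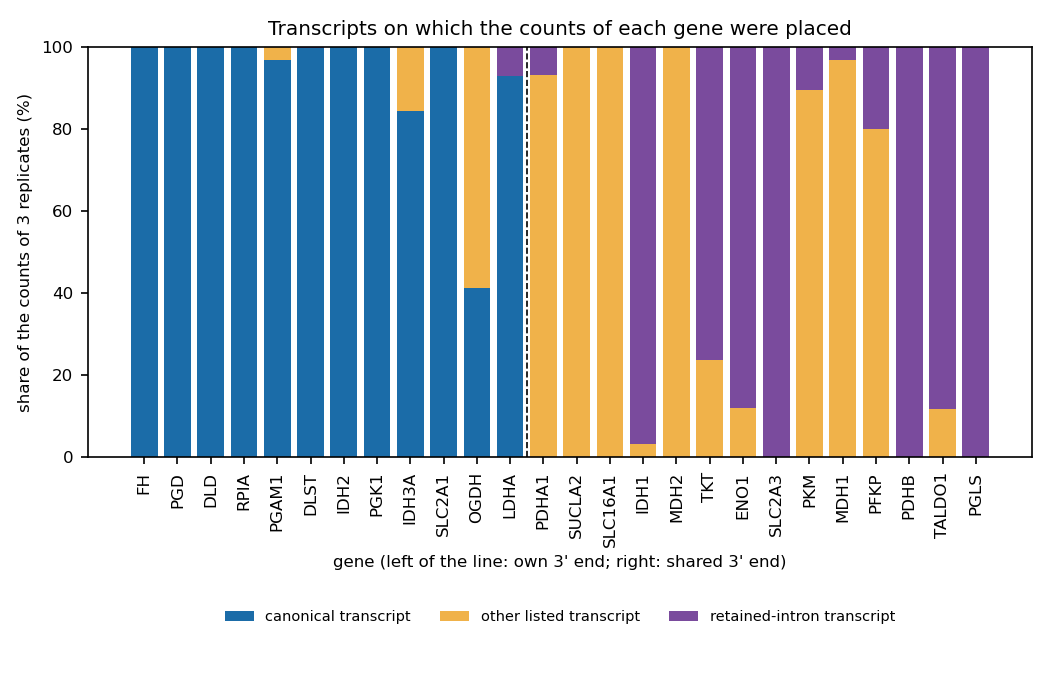
Share of the summed counts of 3 replicates (y axis) on the canonical transcript, on other listed transcripts and on retained-intron transcripts, for each member with at least 10 counts in all. The canonical transcript holds the majority of counts left of the dashed line (own end) except in OGDH with 41.4%, and none right of it (shared end). FH and OGDH lie left of the line by the second reading alone.

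In the citrate cycle CS, the citrate synthase that starts it, had 6, 1 and 1 counts, all on retained-intron transcripts, and was not measured. IDH2, the mitochondrial NADP isocitrate dehydrogenase, had 219, 227 and 303 counts, all on the canonical IDH2-201, whose end is own. IDH1, the cytosolic form, had 42, 29 and 55. The count of IDH2 was 5.21 to 7.83 times that of IDH1 within a library. In TPM the gap was smaller, 18.9 ± 2.70 against 9.05 ± 0.715, a mean log2 ratio of 1.06 ± 0.28 (exact paired permutation test, two-sided, p = 0.25, which is the smallest that 3 replicates allow). The counts of IDH1 lay to 96.8% on retained-intron transcripts, chiefly IDH1-207 and IDH1-208, which end upstream of the canonical end.

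The NAD isocitrate dehydrogenase is built from IDH3A, the catalytic subunit, and the regulatory IDH3B and IDH3G. IDH3A had 74, 49 and 56 counts, 84.4% of them on the canonical IDH3A-201. IDH3B had 0, so IDH3A was at least 16.3-fold higher in counts per library, and IDH3G had 1, 2 and 2, with IDH3A higher by 3.74 ± 0.61 in log2 TPM (exact paired permutation test, p = 0.25). IDH3A alone of these has an own end. In the 2-oxoglutarate dehydrogenase complex, DLST, the E2 core, had 511, 434 and 578 counts (37.2 ± 5.40 TPM), and OGDH, the E1 subunit, had 55, 53 and 37. The counts of OGDH were split between OGDH-201, the canonical form (27, 20 and 13), and the shorter OGDH-204 (28, 33 and 24).

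Succinate-CoA ligase pairs the alpha subunit SUCLG1 with the ATP-forming beta subunit SUCLA2 or the GTP-forming SUCLG2. SUCLA2 had 74, 60 and 53 counts, SUCLG2 had 1, 2 and 4, and SUCLG1 had 2, 5 and 2. SUCLA2 exceeded SUCLG2 in every replicate, by 4.65 ± 1.03 in log2 TPM (exact paired permutation test, p = 0.25). None of the counts of SUCLA2 lay on its canonical transcript, which ends at chr13:47942656 on the minus strand (GRCh38). Of these counts, 57.2% were on SUCLA2-219, a form without a defined coding sequence at chr13:47746438-47935821 on the same strand. SUCLA2-219 thus lies wholly downstream of the canonical end and has no base in common with the canonical transcript. The level of SUCLA2 and its ratio to SUCLG2 include the counts of this form. Another 34.8% were on SUCLA2-205, which had 16, 19 and 30 counts.

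FH, the fumarase, had the highest level of all members, with 4993, 5169 and 5224 counts and 615, 750 and 438 TPM. FH-201 held 99.9% of them. MDH2, the mitochondrial malate dehydrogenase, had 260, 202 and 112 counts and 88.5, 81.3 and 26.1 TPM, while MDH1, the cytosolic form, had 7, 13 and 11. MDH2 exceeded MDH1 in every replicate, by 4.17 ± 0.92 in log2 TPM (exact paired permutation test, p = 0.25). The values of MDH2 come to 98.6% from MDH2-205, a form of 648 bases at chr7:76048051-76049047 on the plus strand (GRCh38). The canonical MDH2-201, which ends at chr7:76067508, had 0 counts. Its place in the high category by TPM, and not by CPM (27.5 ± 12.6), rests on that short form.

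Over the 14 pairs of paralogs or alternative subunits compared, the order was settled in 9, meaning that the higher gene exceeded 3 counts and was the higher in TPM and in CPM in every replicate without overlap. In 5 of the 9 the higher gene has an own end and the lower a shared one (SLC2A1 over SLC2A3, LDHA over LDHB, IDH2 over IDH1, and IDH3A over IDH3B and IDH3G). In the other 4 both ends are shared (PFKP over PFKL and PFKM, SUCLA2 over SUCLG2, MDH2 over MDH1), and no count of these genes lay on a canonical transcript. The order in these 4 is that of the reads assigned, and whether the mRNAs in the cells have the same order was not tested. No pair had an own end in both genes, and in those 5 the order of levels and the class of the end cannot be told apart. A ratio with its test was taken for 4 pairs, and the exact paired permutation test gave p = 0.25 for each, before and after Benjamini-Hochberg adjustment.

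Several glycolytic genes have processed pseudogenes, copies of the mRNA inserted elsewhere. The 64 named after GAPDH, of which 33 had counts, took 257, 210 and 359 counts while GAPDH itself had 0. GAPDHP40 had 115, 87 and 167 of these and GAPDHP35 had 85, 63 and 103. The pseudogenes of LDHB held 101, 88 and 102 counts, or 99.7% of those on parent and copies, and LDHBP2 alone 98, 87 and 99. These 3 pseudogenes are not near-identical to the parent mRNA. They have 8.50%, 7.29% and 11.8% of their 31-base words in common with it, and no word of 75 bases, the length of a read. GAPDHP1 (11, 2 and 20 counts) has 29.0% of such words in common with GAPDH, and 26 words of 75 bases. GAPDHP65 (7, 20 and 17 counts) has 20.6% and 2 words of 75 bases. Whether reads of a parent were placed on its copies with mismatches was not tested. For TPI1 the copies held 6, 2 and 17 counts (86.2%), for ALDOA 2 of 5 counts and for HK2 3 of 4. Those of PGAM1 held 15, 17 and 24, which is 3.07%, and the other members had under 10% on named copies or no counts at all. One transcribed pseudogene not named after its parent, ENSG00000273654, has 41.6% of its 31-base words in common with CS and had 8, 9 and 22 counts beside the 6, 1 and 1 of CS.

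The replicates differed most in the third. Over the 10 members with at least 50 counts in every replicate, the TPM of replicate 3 was below the mean of the others in 10 of 10, with a median log2 ratio of -0.71. All 5656 nuclear genes with such counts had a median of -0.54, and 87.5% were lower. With mitochondrially encoded genes left out of the total, the members' median was -0.17 with 8 lower, and that of all genes -0.0053 with 50.4% lower. MDH2 was farthest below the others on both scales, with log2 ratios of -1.70 and -1.17 and a CV of 52.3%. RPIA (-0.97 and -0.44) and PGK1 (-0.95 and -0.41) followed, whereas IDH2 (-0.24 and 0.30) and DLST (-0.38 and 0.15) changed sign. The mitochondrial share moves with these values, and its part in them beyond the rescaling was not tested.

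**Figure D5:**
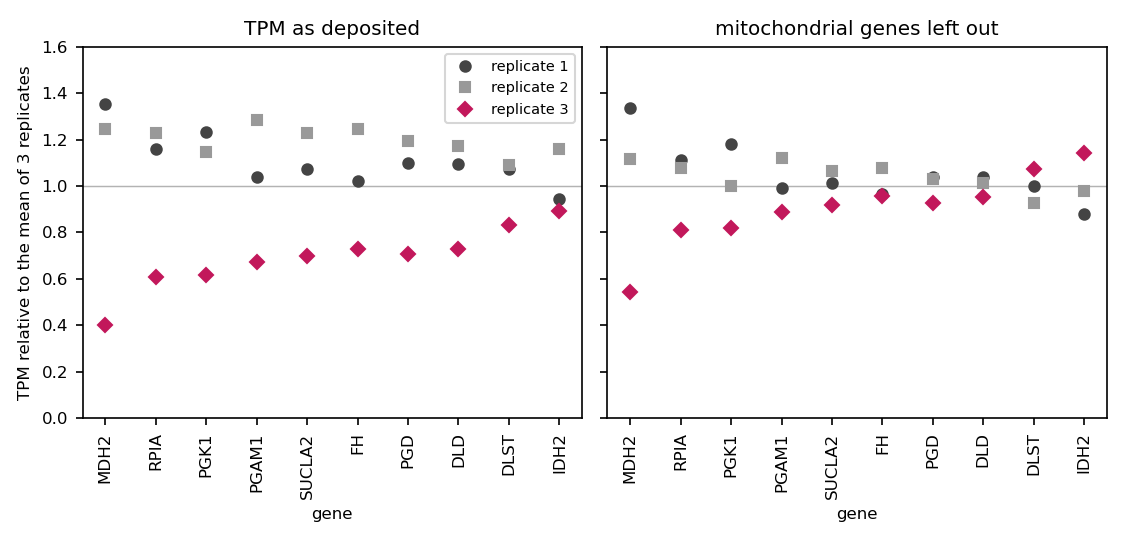
TPM of 10 members relative to their mean over 3 replicates (y axis), as deposited (left) and with mitochondrially encoded genes left out of the total (right). Replicate 3 is the lowest of the replicates for all 10 on the left; on the right IDH2 and DLST are highest in replicate 3, and the lowest point is MDH2 in replicate 3.

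Of 58 other genes of these pathways, 27 were measured and 17 had 0 counts. H6PD, which oxidizes glucose 6-phosphate in the endoplasmic reticulum, had 156, 162 and 409 counts. Of 10 genes for pyruvate entry and its control, 8 were measured. Those at 10 TPM or more included PDK2 (100, 118 and 87.7 TPM) and PDK3 (17.6, 18.0 and 10.3), kinases that switch pyruvate dehydrogenase off. Also at this level were PDP2 (49.1, 52.9 and 26.7), a phosphatase that switches it on, and PDPR (11.0, 11.4 and 12.5), a phosphatase regulatory subunit. The others were PDHX (29.1, 25.8 and 17.9), the E3-binding protein, and the carrier subunit MPC1 (13.2, 10.0 and 10.4). PDP1, the other phosphatase, had 0 counts in every replicate, and its end is shared. The counts of PDP2 and PDPR lay mostly on the canonical transcript. Those of PDK2, PDK3, PDHX and MPC1 lay mostly on another form (PDK2-206, PDK3-203, PDHX-204 and MPC1-203). Their mean levels were 59.3, 129, 8.84 and 4.94 CPM, and their TPM depends on the lengths of those forms.

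Of 10 other genes of the citrate cycle and its exits, 7 were measured. SDHD (135, 133 and 141 TPM) and SDHC (17.4, 19.1 and 12.0) encode the membrane anchor of succinate dehydrogenase. SDHB, the iron-sulfur subunit, had 0, 0 and 1 counts. The ends of SDHB and SDHC are both shared, and SDHD has an own end. SDHC had 1072, 991 and 1042 counts, 3102 of them on the canonical SDHC-202. ME1, the cytosolic malic enzyme, had 74.9, 91.2 and 49.4 TPM. Of 14 regulators and side branches of glycolysis 6 were measured, with PFKFB2 (14.1, 15.4 and 12.1 TPM) and TIGAR (12.8, 12.2 and 5.35 TPM), which set the level of fructose 2,6-bisphosphate, at 10 TPM or more on average.

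Of 22 isozymes known from other tissues 4 were measured, against 39.5% of protein-coding genes, and 11 had no count, against 36.5%. The 15 with an own end include all 4 that were measured, against 55.8% of protein-coding genes with such an end, and 9 of them had no count. These 9 were SLC2A2 (liver and beta cell glucose transporter), HKDC1, PGK2, PGAM2, GAPDHS, PKLR, LDHAL6B, TKTL2 and PDHA2. The 4 measured were SLC2A4 (GLUT4, the insulin-responsive transporter of muscle and fat) with 46, 35 and 48 counts, LDHC, the testis form, with 17, 18 and 38, PGAM4 with 8, 10 and 9, and RPEL1 with 6, 6 and 7. PGAM4 and RPEL1 are retrogenes related to PGAM1 and RPE, and the sequence they share with these genes was not measured. Over all 58 genes 19 of 35 with an own end and 8 of 23 with a shared end were measured, beside 55.8% and 26.2% of protein-coding genes.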

How the data were processed

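The 3 HEK293T libraries (QuantSeq 3′ mRNA-seq, 75-base single-end reads) were analysed together. Per the labels' processing notes, the authors used Trimmomatic 0.38.0, HISAT2 2.2.1 and featureCounts 2.2.1 on hg38, and the deposited tables give the raw count, the length and the TPM of each of 247541 transcripts, TPM being deposited as count over length scaled to 1000000. The annotation release and the setting for reads on several transcripts are not given in the sources used here. Reads of a 3′ library do not grow with length, so TPM raises short transcripts, and CPM was computed beside it. Here, 223558 transcripts were joined by identifier to GENCODE v44 (GRCh38) and summed over 61193 genes, and 94.0% of lengths agreed (515 of 543 for the members). Retained-intron and canonical labels are those of GENCODE. No count model was run, since there is 1 condition. Python 3.11.15, numpy 2.4.6, pandas 2.3.3 and matplotlib 3.10.9 were used, and the functions were tested on simulated data.

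The members and lists were chosen with earlier results of these data known. Values per replicate are given for members of paralog groups, the 5 highest by TPM, those at 3 counts or fewer in any replicate, those with 10% or more of counts on named pseudogenes and the 3 with the largest CV over 50 counts; other pathway genes are named at 10 TPM or as isozymes of other tissues, and some genes and sequences under this rule are not reported here. Alternatives changed the count minimum, the scale, the window, the pseudogene rule and the replicates used. With 3 replicates the precision is that of their spread.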

Additional observations from a re-analysis of the deposited data

How the results depend on the processing

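The members' share of the counts (0.213%) was 0.155% as a share of TPM and 0.246% with mitochondrially encoded genes left out of the total. The number of members with 10% or more of counts on pseudogenes, and over 3 such counts in every replicate, 2 by name (GAPDH and LDHB), was 0 when pseudogenes were chosen by at least 50% shared words. The median log2 ratio of replicate 3, -0.71, was -0.17 with mitochondrially encoded genes left out. With each replicate left out in turn, 23 to 25 members were measured, their share was 0.200% to 0.231%, 7 stayed the number in the high category, 9 to 10 pairs were settled, 2 to 3 members had such pseudogene counts and 27 to 30 other pathway genes were measured, the last 2 of these chosen after seeing the data. The count of measured members was 30 at any count over 0 and 16 at 10 or more. Members with a shared end numbered 34 over all listed transcripts, 34 and 35 with windows of 200 and 500 bases, and 32 over transcripts of unchanged length, an alternative chosen after seeing the data. The mean TPM of 23 genes was compared with its replicate SD. With mitochondrially encoded genes left out, 12 of the 23 moved by more than the SD and 11 by less. With pseudogene counts added, all 23 moved by less. Leaving out 1 of 3 replicates cannot move a mean by a full SD, so those alternatives give no information on this point. No paired analysis was possible because there is just 1 group, so no samples of different groups can be paired; the tests of paralogs pair 2 genes within each library. For members at 0, the limit of 3 counts per library holds for the reads assigned to them. All 6 have a shared end, and whether the limit holds for their mRNA was not tested.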

Other observations

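Of the other pathway genes, 18 had 50 or more counts in each library. With mitochondrially encoded genes left out, 10 of these had a higher level in the third replicate than on average in the first and second, with a median log2 ratio of 0.135. On this scale all 5656 nuclear genes with such counts had a median of -0.0053, and 50.4% were lower. PCK2, which makes phosphoenolpyruvate in mitochondria, had 57, 52 and 164 counts and a log2 ratio of 1.45. The end of PCK2 is shared, and 273 of its counts lay on PCK2-202, which is not the canonical form. H6PD had 156, 162 and 409 counts and a log2 ratio of 1.22, and its end is also shared. TIGAR went the other way, with 476, 385 and 293 counts and a log2 ratio of -0.69. These 3 genes were picked after their values were seen.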
